A study of Mus musculus with 2 samples.

Results

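The genes described here are 40 genes of mitosis and chromosome segregation, listed by name, of 20807 protein-coding genes on chromosomes 1 to 19 in the GENCODE annotation of mm10. They were followed in ATAC-seq data, in which a transposase inserts adapters into open DNA, so that reads pile up at accessible promoters and enhancers. The cells were mouse OT-I CD8+ T cells, which carry a transgenic receptor for an ovalbumin peptide and whose genotype label is WT. Both cultures received OVA257-264 peptide for 48 h. One culture contained TAMos, CD11b+Ly6G-Ly6Chigh cells purified from the spleens of mice with LLC (Lewis lung carcinoma) tumors, and the other contained vehicle. About 50000 sorted CD8+ T cells went into each library. With 1 TAMo library and 1 vehicle library, replication cannot be judged for any difference below, and the intervals reflect counting error alone. Each gene was represented by the peak intervals within 1 kb of one of its start sites. Intervals farther away, up to 100 kb, were assigned to it as distal intervals where its start site was the nearest protein-coding one. By this rule the genes held 230 of 179414 TAMo intervals and 212 of 127423 vehicle intervals. At the edge of the 1 kb limit, TAMo intervals 911 bp from a start of Ect2 and 982 bp from a start of Foxm1 counted as promoter intervals. Bub1 intervals at 1003 bp in TAMo and 1005 bp in vehicle counted as distal.

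Mitosis separates the duplicated chromosomes. Cyclin B with Cdk1 drives entry, condensin compacts the chromosomes and kinetochores attach them to the spindle. A checkpoint holds back the anaphase-promoting complex until every chromosome is attached. Activated CD8+ T cells divide rapidly, and this program is switched on late in each cycle. In mammalian cells many of its promoters have CCAAT boxes, bound by NF-Y, upstream of a CHR (cell cycle genes homology region). The CHR is read by MuvB complexes, which act with B-Myb and Foxm1 in dividing cells and repress these genes in resting cells.

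Letters of that layout stood in most of the promoter windows. RefSeq windows (build GRCm38.p6, 250 bp before to 50 bp after a start) were matched for 32 of the 40 genes. The letters TTTGAA or TTCGAA of a CHR, searched on both strands, occurred in 25 of 32 windows. That is 78.1%, against 12.9% of the 10059 windows matched over all genes. The letters CCAAT, also on both strands, occurred in 23 windows, or 71.9%, against 38.1% of all windows. CHR and CCAAT letters occurred together in 21 windows, or 65.6%, against 5.38% of all windows. E2F-like letters (TTTCCCGC, TTTCGCGC, TTTGGCGC or TTTGCCGC) occurred in 3 windows, or 9.38%, against 4.14%. In the members' windows 1 pair of matches overlapped. The first base of a CHR match lay at a median of -9 bp from the start and that of a CCAAT match at -58 bp. Median GC content was 58.8% in the members' windows and 61.7% in all windows. The summit, the most covered base of a peak, fell inside the window for 27 of 32 genes in TAMo and for 25 in vehicle. The Kif2c window lay at another start of that gene, with the TAMo summit at -3866 bp. Its letters are thus not those of the promoter whose ratio is given. The Cdca5 summit lay 595 bp downstream of the RefSeq start in TAMo.

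The windows of 6 genes are printed on the strand of the gene, 5′ to 3′, with CHR, CCAAT and E2F-like letters in capitals. Ccnb2 (chr9:70421505-70421804, minus strand) and Cdc20 (chr4:118437294-118437593, minus strand) are shown because their promoters were called lower in TAMo. Cdk1 (chr10:69352863-69353162, minus strand) is shown because it is one of 3 windows with all of the letters searched. Plk1 (chr7:122159185-122159484, plus strand) holds 1 CHR and 1 CCAAT match. Spc25 (chr2:69206164-69206463, minus strand) had the second highest ratio of the 40 genes. Pttg1 (chr11:43425932-43426231, minus strand) had the highest ratio and no match. The Pttg1 summits lay upstream of this window, at -284 bp from the RefSeq start in TAMo and at -271 bp in vehicle. They were at -14 bp and -1 bp from another start of Pttg1, outside the window. The absence of matches thus does not describe the DNA at the summits whose ratio is given.
Ccnb2: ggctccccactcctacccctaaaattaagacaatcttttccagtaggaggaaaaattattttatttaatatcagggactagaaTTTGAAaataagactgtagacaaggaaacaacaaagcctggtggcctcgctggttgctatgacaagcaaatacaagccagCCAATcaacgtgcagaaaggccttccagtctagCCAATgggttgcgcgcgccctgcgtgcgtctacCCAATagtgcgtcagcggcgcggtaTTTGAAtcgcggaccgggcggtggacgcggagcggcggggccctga
Cdc20: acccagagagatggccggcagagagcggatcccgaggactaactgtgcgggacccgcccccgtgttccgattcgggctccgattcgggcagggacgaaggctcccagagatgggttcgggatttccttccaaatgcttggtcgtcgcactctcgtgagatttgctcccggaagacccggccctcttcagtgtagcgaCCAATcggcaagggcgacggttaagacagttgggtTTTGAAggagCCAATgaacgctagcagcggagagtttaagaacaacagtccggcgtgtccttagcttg
Cdk1: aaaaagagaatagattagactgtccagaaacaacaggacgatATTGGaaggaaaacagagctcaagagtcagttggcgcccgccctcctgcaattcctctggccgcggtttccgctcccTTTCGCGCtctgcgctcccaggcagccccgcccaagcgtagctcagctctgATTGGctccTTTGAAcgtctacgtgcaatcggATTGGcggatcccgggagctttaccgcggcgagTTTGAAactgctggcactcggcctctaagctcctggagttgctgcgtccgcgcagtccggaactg
Plk1: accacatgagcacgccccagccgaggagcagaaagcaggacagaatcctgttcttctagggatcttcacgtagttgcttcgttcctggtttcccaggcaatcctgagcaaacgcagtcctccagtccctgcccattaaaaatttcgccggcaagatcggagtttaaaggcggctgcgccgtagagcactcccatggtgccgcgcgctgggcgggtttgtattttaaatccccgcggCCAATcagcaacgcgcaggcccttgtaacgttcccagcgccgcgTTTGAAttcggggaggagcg
Spc25: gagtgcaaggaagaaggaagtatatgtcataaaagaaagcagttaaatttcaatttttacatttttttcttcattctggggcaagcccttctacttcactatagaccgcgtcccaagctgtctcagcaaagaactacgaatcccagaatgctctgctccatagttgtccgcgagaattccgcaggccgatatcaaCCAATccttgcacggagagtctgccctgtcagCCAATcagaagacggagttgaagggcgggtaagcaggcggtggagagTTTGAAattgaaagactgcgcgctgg
Pttg1: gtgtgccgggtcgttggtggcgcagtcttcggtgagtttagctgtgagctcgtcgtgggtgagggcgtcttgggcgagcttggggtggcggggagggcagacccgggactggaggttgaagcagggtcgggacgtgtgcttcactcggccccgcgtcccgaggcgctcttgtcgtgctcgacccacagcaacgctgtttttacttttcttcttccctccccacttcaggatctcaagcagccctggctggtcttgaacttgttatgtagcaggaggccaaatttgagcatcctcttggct

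**Figure D1:**
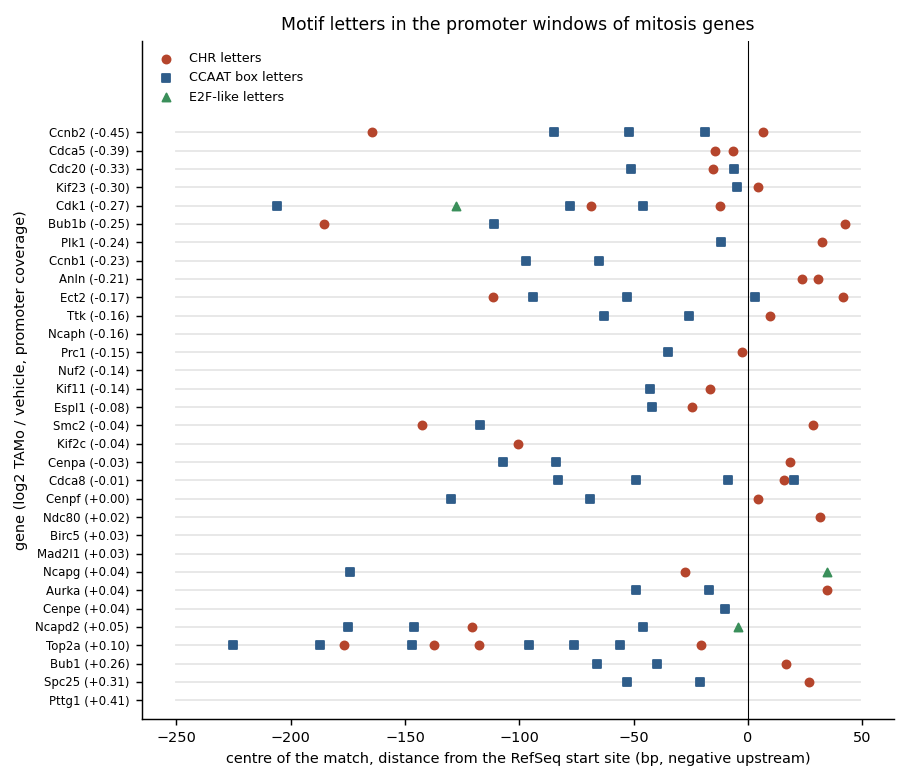
Each line is the promoter window of 1 of 32 mitosis genes, ordered from the lowest to the highest TAMo over vehicle ratio (log2 value beside the name). Symbols mark the centres of letter matches by distance from the RefSeq start (bp, negative upstream). CHR symbols gather near the start and CCAAT symbols just upstream of it. Birc5, Mad2l1, Ncaph, Nuf2 and Pttg1 have no symbol. The Kif2c window is at another start than the peak that gave its ratio. The Pttg1 summits lie upstream of the Pttg1 window, near another start of that gene.

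The peaks themselves were compared by the number of reads at the summit, recovered from the values in the deposited lists. Background coverage was 5.80 reads in TAMo and 4.71 reads in vehicle, a depth ratio of 1.23. A log2 ratio of 0 thus means that TAMo coverage was 1.23 times vehicle coverage before scaling. A promoter was called lower or higher in TAMo where its scaled log2 ratio was 0.32 or more from 0 and the 95% exact binomial interval did not hold 0. All 11 CD8 T cell marker genes had promoter peaks in both libraries. Of 14 myeloid marker genes, 9 had a promoter peak in TAMo and 5 in vehicle. Their summed coverage was 369 times background in TAMo and 268 times background in vehicle. Itgam, a myeloid integrin, had 118 reads in TAMo and no peak in vehicle. Csf1r (100 reads), Adgre1 (31 reads) and Fcgr3 (27 reads) also had peaks in TAMo alone. Cd14 had 411 reads in TAMo and 141 reads in vehicle (log2 ratio 1.24), and Spi1 57 and 25 (0.89). Cd68 (661 reads in TAMo and 510 in vehicle), Cebpb (418 and 347) and Cebpa (316 and 237) made up much of both sums. Lyz2, Ly6c2, Ly6g, Tyrobp and Fcer1g, other myeloid markers, had no promoter peak in either library. The part of such cells in the ratios below was not tested. A promoter open in fewer cells and one less open in each cell also cannot be told apart in these bulk libraries.

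All 40 mitosis promoters were open in both cultures, and the scaled coverage of 35 was called neither lower nor higher in TAMo. Promoter peaks of both libraries overlapped at every one of the 40 genes, whereas 62.1% of all 20807 genes had overlapping promoter peaks. Summit coverage ran from 269 to 1295 reads in TAMo (median 697) and from 281 to 1026 reads in vehicle (median 605). The median percentile among promoters with a peak in the same library was 67.7 in TAMo and 70.8 in vehicle. The median log2 ratio of the 40 genes was -0.06, with quartiles of -0.22 and 0.03, against 0.03 (quartiles -0.13 and 0.22) over 12930 genes. Of the 40, 25 had a ratio below 0 (62.5%), against 44.2% of all genes. Among 8923 genes in the members' range of mean coverage the share was 48.0%, with a median log2 ratio of 0.01. The share was 61.5% in other mitosis genes, 62.1% in proteasome subunits and 80.4% in DNA replication genes, sets described below.

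Called lower in TAMo were 4 of the 40 promoters, Foxm1, Ccnb2, Cdca5 and Cdc20, where 8.65% of all promoters were called lower. Called higher was 1 (2.5%), Pttg1, where 15.9% of all promoters were called higher. The count of lower promoters is near the background, and that of higher promoters is under it. Among 8923 genes whose mean coverage was in the range of the members, 287 to 1160.5 reads, 7.42% were called lower and 9.57% higher. With the interval alone and no fold required, 16 members were lower and 3 higher, against 17.5% and 26.4% of all promoters. The other 21 intervals held 0, and the median interval of a member reached 0.16 to either side on the log2 scale.

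**Figure D2:**
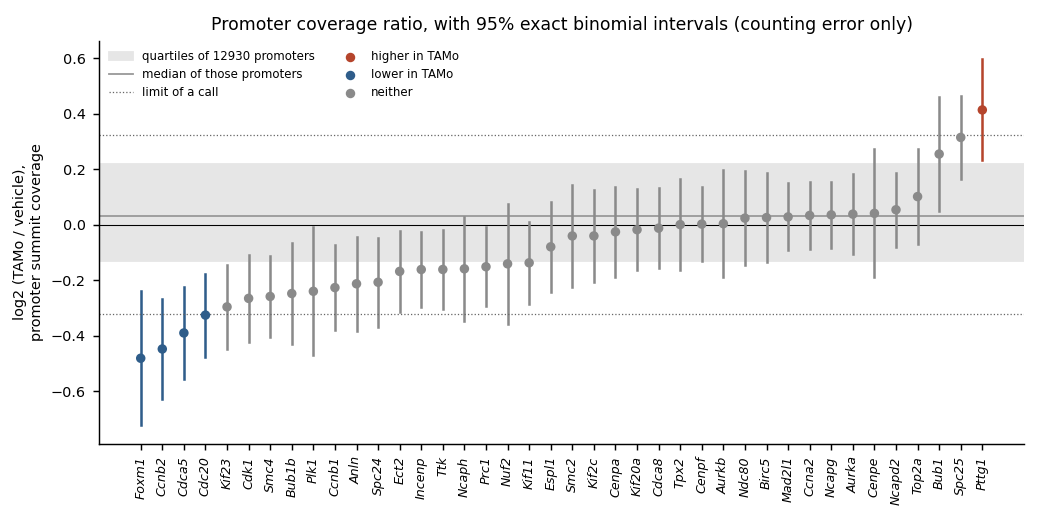
Points give the log2 ratio of promoter summit coverage, TAMo over vehicle, for each of the 40 genes (1 library per group), and bars the 95% exact binomial intervals. The grey band holds the quartiles of 12930 promoters. Most points lie inside the band or just below it, 4 are called lower (blue) and 1 is called higher (red).

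With scaling by background coverage, genes of mitotic entry had the lowest median of the 8 roles, a log2 ratio of -0.27 over 5 genes. Foxm1, the transcription factor of late cell cycle genes, had 269 reads in TAMo and 305 reads in vehicle at its promoter (chr6:128362043-128363413 in the TAMo list). Its log2 ratio was -0.48 (95% interval -0.72 to -0.24), the lowest of the 40. The Foxm1 summits lay 199 bp apart in the 2 libraries, its interval also covers a start of Rhno1, and summing all promoter summits turned the ratio to 0.03. Ccnb2, which encodes cyclin B2, had 482 reads in TAMo and 534 reads in vehicle (chr9:70421271-70422149), a log2 ratio of -0.45 (-0.63 to -0.27). The Ccnb2 summits lay 22 bp apart, inside the printed window, and summing all promoter summits gave -0.09, which was not called. Cdk1, the kinase that cyclin B activates, had 673 reads in TAMo and 657 reads in vehicle, a log2 ratio of -0.27 (-0.42 to -0.11) that was not called. Ccnb1, cyclin B1, had 724 reads in TAMo and 688 reads in vehicle, a log2 ratio of -0.23. Ccna2, which encodes cyclin A2 and acts from S phase on, was the exception of this group with that scaling. It had 1283 reads in TAMo and 1018 reads in vehicle, a log2 ratio of 0.03. The authors' fold enrichment over local background, a measure given below, read otherwise. On it Ccnb2 (0.04), Cdk1 (0.22), Ccna2 (0.30) and Ccnb1 (0.48) stood above 0, and Foxm1 (-0.07) below it.

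Genes of anaphase and cohesion release lay farthest apart, with 2 of 4 called lower and 1 called higher. Of all promoters 8.65% were called lower and 15.9% higher. Pttg1 encodes securin, which inhibits separase until anaphase. Its promoter (chr11:43425913-43426879) had 653 reads in TAMo and 398 reads in vehicle, a log2 ratio of 0.41 (0.23 to 0.60) and the highest of the 40. Its rank among promoters was the 63.9th percentile in TAMo and the 47.4th in vehicle. Cdca5, known as sororin, protects cohesion between sister chromatids. It had 575 reads in TAMo and 612 reads in vehicle (chr19:6085510-6085983), a log2 ratio of -0.39 (-0.56 to -0.22). That summit lay 709 bp downstream of the Cdca5 start in TAMo and 719 bp in vehicle, and with a window of 500 bp a nearer peak gave -0.27, which was not called. Cdc20, the activator of the anaphase-promoting complex, had 728 reads in TAMo and 741 reads in vehicle (chr4:118436880-118437932). Its log2 ratio was -0.33 (-0.48 to -0.18), just past the limit of a call. Espl1, the separase that cuts cohesin, had 677 reads in TAMo and 581 reads in vehicle, a log2 ratio of -0.08.

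With scaling by background coverage, all 5 cytokinesis genes had ratios below 0 and none was called. Centred on all shared regions, a scaling given below, 4 of the 5 were called lower, against 35.3% of all promoters. The shared direction did not hold by the authors' fold enrichment. On that measure Anln (0.08), Prc1 (0.14) and Kif20a (0.18) stood above 0, and Kif23 (-0.48) and Ect2 (-0.05) below it. Kif23, a motor of the central spindle, had 711 reads in TAMo and 709 reads in vehicle, a log2 ratio of -0.30 (-0.45 to -0.14). Its 95% interval excluded 0, and so did those of Anln (-0.21), Ect2 (-0.17) and Prc1 (-0.15). The Anln summits lay 176 bp apart, and summing all promoter summits, 2 in TAMo and 4 in vehicle, gave -1.12. Anln is an actin-binding scaffold of the cleavage furrow, Ect2 activates RhoA there, and Prc1 bundles the microtubules between the separating chromosomes. Kif20a, another motor of the central spindle, had 838 reads in TAMo and 689 reads in vehicle, a log2 ratio of -0.02, with summits 306 bp apart.

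Kinetochore and checkpoint genes were spread around 0. Spc25 and Spc24 encode partners in the Ndc80 complex, which binds microtubules, and their promoters stood on opposite sides. Spc25 had 916 reads in TAMo and 598 reads in vehicle, a log2 ratio of 0.31 (0.16 to 0.47), just short of that limit. Spc24 had 657 reads in TAMo and 616 reads in vehicle, a log2 ratio of -0.21 (-0.37 to -0.05). Ndc80 (0.02) and Nuf2 (-0.14), the other subunits, had intervals that held 0. The Ndc80 summits lay 109 bp apart, and summing all promoter summits gave -0.60. Intervals also held 0 for Cenpa (-0.03), the histone variant of centromeres, Cenpf (0.00) and the motor Cenpe (0.04). Summing all promoter summits, 4 in TAMo and 2 in vehicle, gave 0.64 for Cenpa. In the checkpoint the kinase Bub1 had 482 reads in TAMo and 328 reads in vehicle, a log2 ratio of 0.26 (0.05 to 0.46). Its relative Bub1b, known as BubR1, had 506 reads in TAMo and 488 reads in vehicle, a log2 ratio of -0.25 (-0.43 to -0.07). The kinase Ttk had a log2 ratio of -0.16 and Mad2l1, which binds Cdc20, one of 0.03. Neither Bub1 nor Bub1b was called.

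The other roles held no called promoter. Plk1, the mitotic polo kinase, had 318 reads in TAMo and 305 reads in vehicle, a log2 ratio of -0.24 (-0.47 to -0.01). Aurka (0.04), the kinase of spindle poles, its activator Tpx2 (0.00) and the motors Kif2c (-0.04) and Kif11 (-0.14) had intervals that held 0. In the chromosomal passenger complex, Incenp, the scaffold, had 948 reads in TAMo and 861 reads in vehicle, a log2 ratio of -0.16. Its partners Aurkb (0.00), the kinase, Birc5 (0.03), known as survivin, and Cdca8 (-0.01), known as borealin, had intervals that held 0. Smc4, a core condensin subunit, had 774 reads in TAMo and 752 reads in vehicle, a log2 ratio of -0.26 (-0.41 to -0.11). Its partner Smc2 had a log2 ratio of -0.04, and Ncapg, with 1295 reads in TAMo and 1026 reads in vehicle the most covered of the 40, one of 0.04. The condensin subunits Ncaph and Ncapd2 had log2 ratios of -0.16 and 0.05. Top2a, the topoisomerase that untangles sister DNA, had 650 reads in TAMo and 492 reads in vehicle, a log2 ratio of 0.10 (-0.07 to 0.28).

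**Figure D3:**
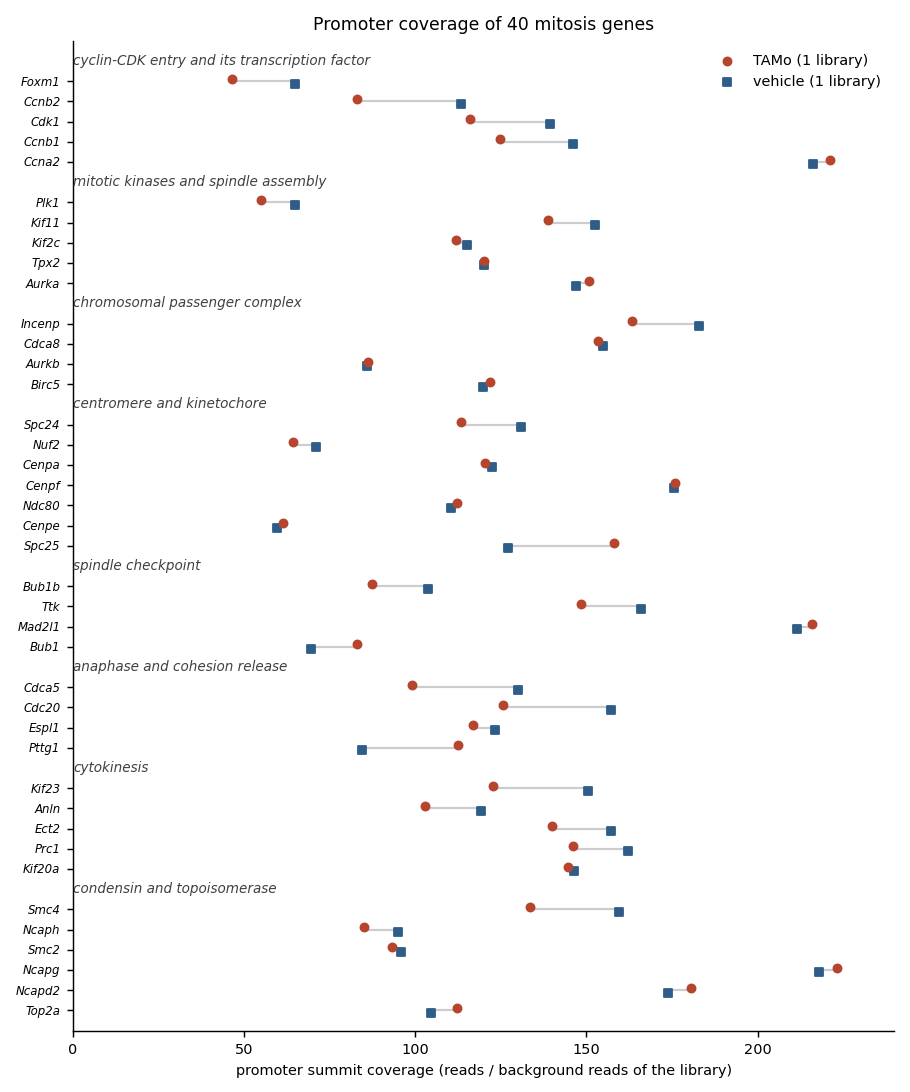
Summit coverage of each promoter divided by the background of its library, for TAMo (circles) and vehicle (squares), with 1 library per group and genes grouped by role. The pairs nearly coincide for Aurkb, Tpx2, Cenpf and Cdca8. TAMo lies left of vehicle for 25 genes, among them Ccnb2, Cdca5 and Cdc20, and right of it for Pttg1, Spc25 and Bub1.

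At 7 of the 40 genes the start of another protein-coding gene lay within 1 kb. These pairs were Foxm1 with Rhno1, Aurka with Cstf1, Cdca8 with 9930104L06Rik, Cdca5 with Zfpl1, Kif20a with Brd8, Smc4 with Ift80 and Ncapd2 with Mrpl51, and coverage there cannot be split between the partners. Positions of the summits were otherwise alike in the 2 libraries. They lay within 20 bp of each other at 31 of 40 genes (77.5%), against 78.5% of all genes. Median interval width was 878.5 bp in TAMo and 869 bp in vehicle, against 866 bp and 834.5 bp over all genes.

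The area around the mitosis promoters read differently. The authors' peak caller divides summit coverage by a local background, and that background, at a median of 35.8 reads in TAMo and 35.0 reads in vehicle, was lower in TAMo after depth scaling at 32 of 40 members (80.0%), against 52.9% of all genes. Its median log2 ratio was -0.22 at the members and -0.02 over all genes. The fold enrichment in the deposited lists was higher in TAMo at 35 of 40 members (87.5%) and at 66.4% of all genes. On that measure the median log2 ratio was 0.17 for the members and 0.08 over all genes. Ccnb2 (0.04), Cdca5 (0.16) and Cdc20 (0.31) stood above 0, whereas Foxm1 (-0.07) stayed below it and Pttg1 (0.26) above it. The direction at Ccnb2, Cdca5 and Cdc20 thus depends on whether coverage is scaled by the library or by the surroundings of the peak. The same held for most uncalled members with ratios below 0, among them Cdk1 (0.22), Ccnb1 (0.48), Bub1b (0.06), Plk1 (0.12), Spc24 (0.23) and Ttk (0.07). Only Foxm1, Kif2c, Kif23, Ect2 and Smc4 were below 0 on both measures.

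A different library scaling moved the counts in the other direction. Over 103845 regions open in both libraries the median log2 ratio was 0.28. Relative to that shift the members' median was -0.34, against -0.25 over all promoters. Of the members 20 were then called lower and 0 higher, against 35.3% and 7.11% of all promoters, and Pttg1 (0.14) was no longer called.

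Genes of the same program outside the list gave a like distribution of ratios. Of 99 other mitosis genes 96 had overlapping promoter peaks, with a median log2 ratio of -0.05. Of these 9 were called lower (9.38%) and 2 higher (2.08%), against 8.65% and 15.9% of all promoters. Other kinetochore genes supplied 6 of those 9, out of 27 with a ratio (22.2%). Ska1, which couples kinetochores to shrinking microtubules, had 234 reads in TAMo and 398 reads in vehicle, a log2 ratio of -1.07. Nsl1 (-0.46) and Dsn1 (-0.44), both of the Mis12 complex, and Knl1 (-0.39), the platform for Bub1, were also called lower. Knl1 (0.12) and Nsl1 (0.03) were above 0 by the authors' fold enrichment, and Dsn1 (0.20) with all promoter summits summed. At the other end, Cenpq, a centromere protein, had 1146 reads in TAMo and 497 reads in vehicle, a log2 ratio of 0.91. Cdc16, an anaphase-promoting complex subunit, had 386 reads in TAMo and 235 reads in vehicle, a log2 ratio of 0.42. These 2 were called higher, and Cdc23 (0.27), of the same complex, and the shugoshin gene Sgo2a (0.24) were not. Cenpl and Lin54 had promoter peaks that did not overlap between libraries, and Kif14 had none in either library.

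DNA replication genes, which act earlier in the cycle, had a median log2 ratio of -0.21, against -0.06 for the mitosis genes. Of 46 replication genes 13 were called lower (28.3%) and 0 higher, against 8.65% and 15.9% of all promoters. The median of 29 proteasome subunits, a set not tied to the cell cycle, was -0.03, with 1 called lower (3.45%) and 0 higher. CHR letters occurred in 13.5% of 37 replication windows and 4.17% of 24 proteasome windows, and in 47.5% of 80 windows of the other mitosis genes. E2F-like letters occurred in 37.8% of the replication windows. Within the 40 genes the median log2 ratio was -0.08 for the 25 windows with CHR letters and 0.03 for the 7 without. Kif2c is among the former and Pttg1 among the latter, and at both the summits lay outside the window, near another start. Over all genes it was 0.04 for the 1299 windows with CHR letters and 0.03 for the 8760 without.

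**Figure D4:**
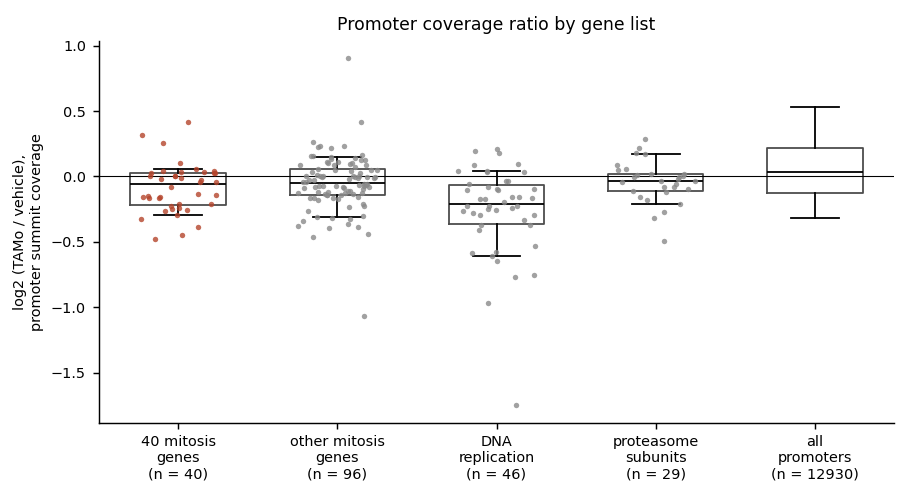
Log2 ratio of promoter summit coverage, TAMo over vehicle, for 5 sets of genes. Points are genes, boxes give the quartiles and median, and whiskers reach the 10th and 90th percentiles. The mitosis box (median -0.06) lies close to that of the other mitosis genes (-0.05), above DNA replication (-0.21) and below all promoters (0.03).

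Distal regions near mitosis genes ranged far more widely than their promoters. Of the 40 genes, 29 had at least 1 distal region open in both libraries, 103 regions in all. Their median log2 ratio was 0.18 (quartiles -0.26 and 0.84), against 0.37 (-0.11 and 1.00) over 74285 distal regions. Called higher in TAMo were 37 of the 103 (35.9%), against 45.2% of all distal regions. Called lower were 16 (15.5%), against 11.6%. Within 10 kb of the start the 25 regions of members had a median log2 ratio of 0.03, against 0.27 over all such regions. Beyond 10 kb the 78 regions of members had a median of 0.26, against 0.41 over all. Distal regions of 1 gene share their surroundings and are not independent of each other.

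The most divergent regions lay mostly in introns or between genes. In an intron of Tpx2 (chr2:152863148-152863778) coverage was 482 reads in TAMo and 52 reads in vehicle, a log2 ratio of 2.91. Downstream of Ccnb2, a region in an intron of Myo1e (chr9:70371620-70372100) had 181 reads in TAMo and 28 reads in vehicle, a log2 ratio of 2.39. An intron of Ect2 (chr3:27120899-27121277) had 106 reads in TAMo and 17 reads in vehicle, a log2 ratio of 2.34. A second region downstream of Ccnb2, between genes (chr9:70403210-70403622), had 137 reads in TAMo and 24 reads in vehicle, a log2 ratio of 2.21. All 4 had far more reads in TAMo, at genes whose promoter ratios were near or below 0. In the opposite direction, an intron of Cdca8 (chr4:124927881-124928573) had 111 reads in TAMo and 429 reads in vehicle, a log2 ratio of -2.25 (-2.57 to -1.95). Between genes near Incenp (chr19:9911282-9911795) there were 32 reads in TAMo and 69 reads in vehicle, a log2 ratio of -1.41. A region between genes downstream of Pttg1 (chr11:43386941-43387525) had 261 reads in TAMo and 527 reads in vehicle, a log2 ratio of -1.31. The fourth, near Incenp (chr19:9939820-9940157) in an exon of the unconfirmed transcript AC132253.7, had 158 reads in TAMo and 313 reads in vehicle, a log2 ratio of -1.29.

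By gene, the distal regions are read against the 45.2% called higher, the 11.6% called lower and the median of 0.37 over all distal regions. Near Ccnb2, whose promoter was called lower with background scaling, 6 of 9 distal regions were called higher and 1 lower, with a median log2 ratio of 0.85. Most of these 9 regions lay inside another gene, Myo1e. The Ccnb2 promoter ratio was -0.09 with summits summed and 0.04 by fold enrichment, and neither was called. Near Pttg1, whose promoter was called higher, 5 of 12 distal regions were called lower and 1 higher, with a median of -0.23. Those 12 regions lay 12881 to 80957 bp from the nearest Pttg1 start. Whether promoter and distal ratios are related was not tested. Near Cdk1 4 of 7 distal regions were called higher and near Bub1b 3 of 5, shares not far from that of all distal regions. Mad2l1 likewise had 4 of 7 called higher, the most covered of them with 1041 reads in TAMo and 261 reads in vehicle. Near Aurkb (5 regions) and Kif2c (7 regions) none was called higher, and 2 were called lower at each gene.

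**Figure D5:**
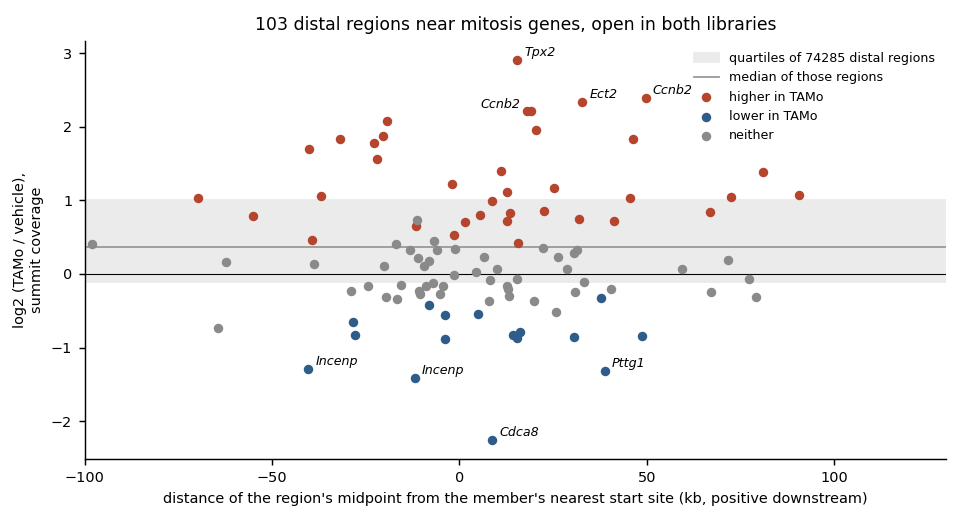
Each point is 1 of 103 distal regions near mitosis genes that were open in both libraries, by distance from the gene's nearest start site (kb) and log2 ratio of summit coverage, TAMo over vehicle. The grey band holds the quartiles of 74285 distal regions. Named points are the 4 highest, from Tpx2 at 2.91, and the 4 lowest, down to Cdca8 at -2.25.

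Counts of peaks near the mitosis genes differed less between the libraries than counts over the whole lists. The promoters held 65 intervals in TAMo and 66 in vehicle, a ratio of 0.985, against 1.1 over all promoters. Distal intervals numbered 165 in TAMo and 146 in vehicle, a ratio of 1.13, against 1.43 over all genes. TAMo had more distal intervals at 18 genes and vehicle at 11, with 4 genes equal and 7 without any. An interval that overlapped nothing in the other list is a missing call there and not a measured absence of reads. Such one-library intervals were 61 of the 165 distal ones in TAMo (37.0%, 95% Wilson interval 30.0 to 44.6%), against 41.6% of all distal TAMo intervals. In vehicle they were 37 of 146 (25.3%, 19 to 33.0%), from 21 genes, against 13.8% of all distal vehicle intervals. The Wilson intervals treat peaks as independent, which peaks of 1 gene in 1 library are not. They cannot serve as a test against those shares. At promoters they were 7 of 65 in TAMo (10.8%, 5.32 to 20.6%), against 15.7%, and 6 of 66 in vehicle (9.09%, 4.23 to 18.4%), against 5.9%.

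Most one-library intervals were weak. Ranked by the authors' −log10 q within their own list, the distal ones had a median percentile of 31.8 in TAMo and 16.9 in vehicle. The distal interval of TAMo alone with the highest −log10 q, in an intron of Kif2c (chr4:117169435-117169798), had 181 reads. Next by −log10 q came an intron of Ndc80 (chr17:71504522-71504846) with 168 reads, then sites between genes near Ect2 (chr3:27159616-27160045) with 129 reads and near Ttk (chr9:83822936-83823242) with 123 reads. Of vehicle alone, the highest −log10 q belonged to a site between genes upstream of Aurkb (chr11:69037756-69038006) with 263 reads. By −log10 q it was followed by sites between genes near Top2a (chr11:99027139-99027362) with 123 reads, Ccnb1 (chr13:100791866-100792098) with 103 reads and Cenpf (chr1:189607219-189607414) with 90 reads. The order by reads differs, since a TAMo interval near Kif23 had 188 reads, and vehicle intervals near Aurkb and Kif2c had 189 and 162 reads, at lower −log10 q. The promoter interval of TAMo alone with the highest −log10 q, within 1 kb of a start of Kif2c (chr4:117177531-117177873), had 357 reads and lay at the 85.2nd percentile of its list.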

How the data were processed

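The labels' protocols describe about 50000 sorted cells per library, a Vazyme TruePrep kit V2 and paired reads of 150 bp on a HiSeq X instrument. Trimmomatic 0.36, Bowtie2 and MACS2 with build mm10 are listed in the submitters' processing notes. Duplicate removal, read shifting and caller settings were not stated there. The authors deposited 1 peak list per library, each called separately. In the deposited lists each row holds a score, equal to 10 times −log10 q rounded down in all but 3 rows, and a fold enrichment over local background. The deposited rows also give −log10 p, −log10 q and a summit position. Lists held 225656 rows and 179414 intervals in TAMo and 163215 rows and 127423 intervals in vehicle.

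Reads at each summit were recovered from the deposited fold, read as (coverage + 1)/(background + 1), and the −log10 p, read as a Poisson tail. Whole numbers within 1% of the step were accepted, which left out 48 rows in TAMo and 30 in vehicle. Median summit coverage was 93 reads in TAMo and 81 in vehicle. Ratios of the strongest overlapping promoter peaks (at least 1 bp) were scaled by the most frequent background. Start sites came from GENCODE M21 basic. The recovery and intervals were tested on simulated data. Reads are not independent molecules, and the total depth of the libraries is unknown.

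The members, lists and motifs were chosen with earlier results of these data known. All members could be named; of other mitosis genes, the 4 lowest and 4 highest promoter ratios; of distal regions, the 4 largest ratios in each direction and the 4 one-library intervals of each list with the highest −log10 q. Replication and proteasome genes are given as counts. The Kif2c promoter interval, the strong Mad2l1 region, the one-library intervals ordered by reads and the distal counts by gene were chosen after their values were seen. Alternatives covered the window, scaling, overlap, fold limit, coverage measure and list length. Python 3.11.15, numpy 2.4.6, pandas 2.3.3, scipy 1.17.1 and matplotlib 3.10.9 were used.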

Additional observations from a re-analysis of the deposited data

How the results depend on the processing

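Windows of 500 bp or 2.5 kb, centring on all promoters, other overlap rules, a −log10 q of at least 5 and, chosen after seeing the data, any summit of a promoter interval kept the members' median promoter ratio and counts of calls near the values above. Of these, the 500 bp window ended the call of Cdca5 (-0.27). Centring on all promoters also called Kif23 lower, where 10.2% of all promoters were lower. Shares in brackets are those of all promoters, regions or intervals under the same setting. Centred on all shared regions, the median was -0.34 with 20 members lower (35.3%) and 0 higher (7.11%), and the distal median was -0.10 with 34 regions lower (21.2%) and 29 higher (33.4%). By the authors' fold enrichment the median was 0.17, with 1 member lower (5.85%), Kif23 at -0.48, and 4 higher (15.6%), Ccnb1, Cenpf, Espl1 and Top2a. Among the called genes named above, Ccnb2 (0.0398), Cdc20 (0.31), Cdca5 (0.16), Nsl1 (0.0342) and Knl1 (0.12) changed sign there. Most uncalled members with ratios below 0 did so too. A limit of 1.5-fold left 0 lower (3.08%) and 0 higher (8.51%). The interval alone gave 16 lower (17.5%) and 3 higher (26.4%). Summed summits gave 8 lower (9.91%) and 3 higher (25.2%). The lower ones were Anln, Bub1b, Ccnb1, Cdc20, Cdca5, Ncaph, Ndc80 and Plk1, and the higher ones Cenpa, Pttg1 and Top2a. Ccnb2 (-0.09) was no longer called there, and of the called genes named above Foxm1 (0.0279) and Dsn1 (0.20) changed sign. With both lists at equal length, one-library promoter intervals numbered 4 of 61 in TAMo (8.27%) and 7 of 66 in vehicle (11.6%). Distally they numbered 31 of 125 in TAMo (27.9%) and 47 of 146 in vehicle (24.2%). Requiring no other interval within 500 bp left 2 promoter intervals in TAMo (6.02%) and 0 in vehicle (1.59%), and 52 distal ones in TAMo (34.2%) and 26 in vehicle (8.95%). The causes were not tested, beyond the local background values given in the report. Coverage was measured only where a peak was called, so weak sites are missing. No paired analysis was possible because each group has 1 library.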
